A study of Mus musculus with 12 samples.

Results

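A set of 9 genes of plasminogen activation and blood coagulation was followed in mouse tissue from beside the spine. They are *Plau*, *Plat*, *Plaur*, *Serpine2*, *Serpinb2*, *F3*, *F13a1*, *Thbd* and *Procr*, 9 of the 18996 genes in the count table, and all 9 passed the filter on low counts. They were selected on the levels measured in these same mice, so their values and fold changes are a description and no p-value is given for them. Where a fit across all genes called some of them, the calls are counted only beside the share of all genes called. Bulk RNA sequencing covered 12 BALB/c mice aged 5 to 7 weeks, with 4 mice in each of 3 groups. No operation mice gave paraspinal soft tissue without surgery. SHAM mice had paraspinal soft tissue removed while the laminae were kept, and Laminectomy mice had laminae and spinous processes of the lower thoracic and upper lumbar spine removed so that the dura was exposed. Tissue from both surgical groups, scar and soft tissue together, was taken at day 7 after the operation. The study used mice of both sexes, and the sex of each of these 12 was not given in the sources used here. The comparisons asked how far the surgical wound, with and without opening of the spinal canal, was accompanied by a different balance of these genes.

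Plasmin, the protease that dissolves fibrin, is made from plasminogen by the urokinase-type activator (uPA, encoded by *Plau*) and the tissue-type activator (tPA, encoded by *Plat*), and inhibitors of the serpin family hold both in check. Clotting starts when tissue factor (encoded by *F3*) meets factor VII, and ends with fibrin that factor XIII crosslinks. Thrombomodulin (encoded by *Thbd*) and the endothelial protein C receptor (encoded by *Procr*) turn thrombin toward the protein C anticoagulant pathway. In wounds, fibrin forms the provisional matrix that invading macrophages and fibroblasts later remove and replace.

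Total counts per mouse were between 16802989 and 18077868, so a count of 3 stood for 0.154 to 0.210 CPM, the count scaled by the TMM effective library size. The tissue changed much between groups. The summed level of 8 skeletal muscle fibre markers was 94701 to 134209 CPM in No operation mice, 2325 to 9277 CPM in SHAM mice and 3055 to 13267 CPM in Laminectomy mice, and the 8 macrophage markers summed to 655 to 1380, 2984 to 5253 and 1973 to 2397 CPM. SHAM replicate 1 stood apart. It had the lowest muscle sum and the highest macrophage sum of all 12 mice, and it held the highest level within its group for 7 of the 9 genes and the lowest for *Serpine2*. Fold changes of the 9 genes that involve SHAM mice are therefore also given without it, and so are the SHAM fold changes of several other pathway genes. No operation replicate 1 likewise was highest in its group for 7 of the 9 genes and lowest for *Serpine2*. Its macrophage sum was 1380 CPM against 655 to 795 CPM in the other No operation mice. Without No operation replicate 1, log2 fold changes were 1.75 for *F13a1* in SHAM and 0.43 for *Serpine2* in Laminectomy mice. Those of *Plat* and *Serpinb2* are given below. In bulk tissue, fewer cells of a type and less RNA per cell cannot be told apart.

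Upstream sequences of 6 of the 9 genes were matched in RefSeq (GRCm38.p6), and those of 5 are shown because they belong to the genes with the largest and the most opposed differences between groups. *Serpinb2* (chr1:107511173-107511422, plus strand), *F3* (chr3:121723287-121723536, plus strand), *Plaur* (chr7:24462233-24462482, plus strand), *F13a1* (chr13:37050245-37050494, minus strand) and *Serpine2* (chr1:79858697-79858915, minus strand) are each written from 5′ to 3′ on the strand of the gene. They run toward the RefSeq start, from which distances are counted, with bases of any exon left out. The *Serpine2* window lies inside the span that GENCODE gives the gene. Capitals mark the AP-1 letters TGANTCA and the TATA box letters TATAAA.
Serpinb2: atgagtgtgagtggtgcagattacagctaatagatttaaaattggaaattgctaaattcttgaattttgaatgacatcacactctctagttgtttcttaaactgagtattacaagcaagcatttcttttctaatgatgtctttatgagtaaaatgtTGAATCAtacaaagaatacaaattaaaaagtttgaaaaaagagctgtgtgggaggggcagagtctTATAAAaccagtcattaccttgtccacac
F3: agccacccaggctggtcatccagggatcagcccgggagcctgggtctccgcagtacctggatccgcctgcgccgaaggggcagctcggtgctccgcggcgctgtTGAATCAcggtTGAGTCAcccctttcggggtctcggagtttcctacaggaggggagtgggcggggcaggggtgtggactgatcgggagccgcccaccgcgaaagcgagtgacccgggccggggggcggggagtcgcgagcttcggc
Plaur: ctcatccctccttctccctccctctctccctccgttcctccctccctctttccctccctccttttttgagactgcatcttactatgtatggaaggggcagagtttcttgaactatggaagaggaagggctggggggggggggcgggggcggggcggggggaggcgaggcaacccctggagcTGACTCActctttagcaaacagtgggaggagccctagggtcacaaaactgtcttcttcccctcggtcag
F13a1: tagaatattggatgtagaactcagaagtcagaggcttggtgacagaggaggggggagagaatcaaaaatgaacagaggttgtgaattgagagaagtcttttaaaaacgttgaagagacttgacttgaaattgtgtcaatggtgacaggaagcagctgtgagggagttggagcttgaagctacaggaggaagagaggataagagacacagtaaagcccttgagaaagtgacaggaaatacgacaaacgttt
Serpine2: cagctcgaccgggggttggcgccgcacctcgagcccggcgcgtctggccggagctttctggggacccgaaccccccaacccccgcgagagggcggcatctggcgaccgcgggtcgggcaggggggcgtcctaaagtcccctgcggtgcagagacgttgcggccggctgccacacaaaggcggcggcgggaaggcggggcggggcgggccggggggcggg
*Serpinb2* held the AP-1 letters 94 bases upstream of the start and the TATA box letters 29 bases upstream. From its other RefSeq start, the same letters lay 181 and 116 bases upstream. *F3* held the AP-1 letters in 2 places, 146 and 135 bases upstream, and *Plaur* held them once, at 69 bases. *Procr*, not shown, held them once at 154 bases, and neither *F13a1* nor *Serpine2* held them. Counted over the full 250 bases upstream, exon bases included, *Serpine2* held 6 GC boxes (GGGCGG, either strand). Those at 19 and 13 bases upstream lay in exon bases that are not shown above. *F3* and *Plaur* held 3 each, and *Serpinb2* and *F13a1* held 0. Searched on both strands, the AP-1 letters were present in 6.75% of all 32851 RefSeq promoter windows, the TATA box letters in 12.4% and the GC box in 32.7%. The cyclic AMP response element (TGACGTCA) was in none of the windows of the 6 genes and in 1.55% of all windows. A match of letters is a description of the sequence and does not show that a factor bound there.

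*Plau* and *Plat*, the genes of both plasminogen activators, were at higher levels in surgical tissue than in No operation tissue. *Plau* (identifier 18792, chromosome 14 of GRCm38, 20836660 to 20843385, plus strand) measured 68.6, 57.1, 59.9 and 66.2 CPM without an operation, 102, 92.0, 100.5 and 117 CPM after the SHAM procedure and 120.5, 87.7, 93.2 and 96.1 CPM after laminectomy. Every surgical mouse stood above every No operation mouse, and the surgical groups overlapped. The log2 fold change was 0.71 (SE 0.116) in SHAM and 0.66 (SE 0.116) in Laminectomy mice, both relative to No operation, and -0.05 (SE 0.115) between Laminectomy and SHAM. Of the 9 genes, *Plau* differed least between the operations, and its SHAM value without replicate 1 was 0.71 as well.

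*Plat* (identifier 18791, chromosome 8, 22757727 to 22782844, plus strand) measured 71.7, 23.1, 31.1 and 26.6 CPM without an operation, 108, 92.7, 95.8 and 103 CPM after the SHAM procedure and 68.1, 58.1, 72.7 and 64.3 CPM after laminectomy. Every SHAM mouse was above every mouse of the other groups. No operation replicate 1, with more than the other No operation mice, lay within the Laminectomy range, so those groups overlapped in that 1 mouse. As a log2 fold change, the difference relative to No operation was 1.39 (SE 0.295) in SHAM and 0.79 (SE 0.292) in Laminectomy mice, and Laminectomy stood at -0.60 (SE 0.290) relative to SHAM. Without SHAM replicate 1 the SHAM values were 1.36 relative to No operation and -0.56 between the operations. Without No operation replicate 1 the differences from No operation were 1.89 in SHAM and 1.29 in Laminectomy mice. Among the genes whose patterns over the 12 mice lay closest to *Plat* was *Anpep*, an aminopeptidase of myeloid and stromal cells, with a root mean square difference of 0.177 on the centred log2(CPM + 0.1) scale.

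*Plaur*, the gene of the receptor that holds uPA on the cell surface, differed more from No operation tissue in both surgical groups than *Plau* and *Plat* did. *Plaur* (identifier 18793, chromosome 7, 24462484 to 24475968, plus strand) measured 15.8, 21.2, 9.79 and 3.72 CPM without an operation, 76.7, 54.5, 37.7 and 60.1 CPM after the SHAM procedure and 66.8, 42.4, 36.9 and 36.2 CPM after laminectomy. No surgical mouse came down to the highest No operation mouse, and SHAM and Laminectomy mice overlapped. The log2 fold change relative to No operation was 2.18 (SE 0.432) in SHAM mice, 2.00 (SE 0.451) without SHAM replicate 1, and 1.85 (SE 0.428) in Laminectomy mice. Between the operations it was -0.33 (SE 0.408), or -0.15 without SHAM replicate 1. The genes with the most similar pattern were *Spi1*, *Milr1* and *Cd84* (differences of 0.144, 0.173 and 0.178), of which *Spi1* encodes the myeloid transcription factor PU.1. Macrophage markers were higher in the same groups, with 8 of 8 called higher in SHAM and 7 of 8 in Laminectomy mice (background 25.7% and 24.2% of all genes), and their part in the *Plaur* result was not tested.

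**Figure D1:**
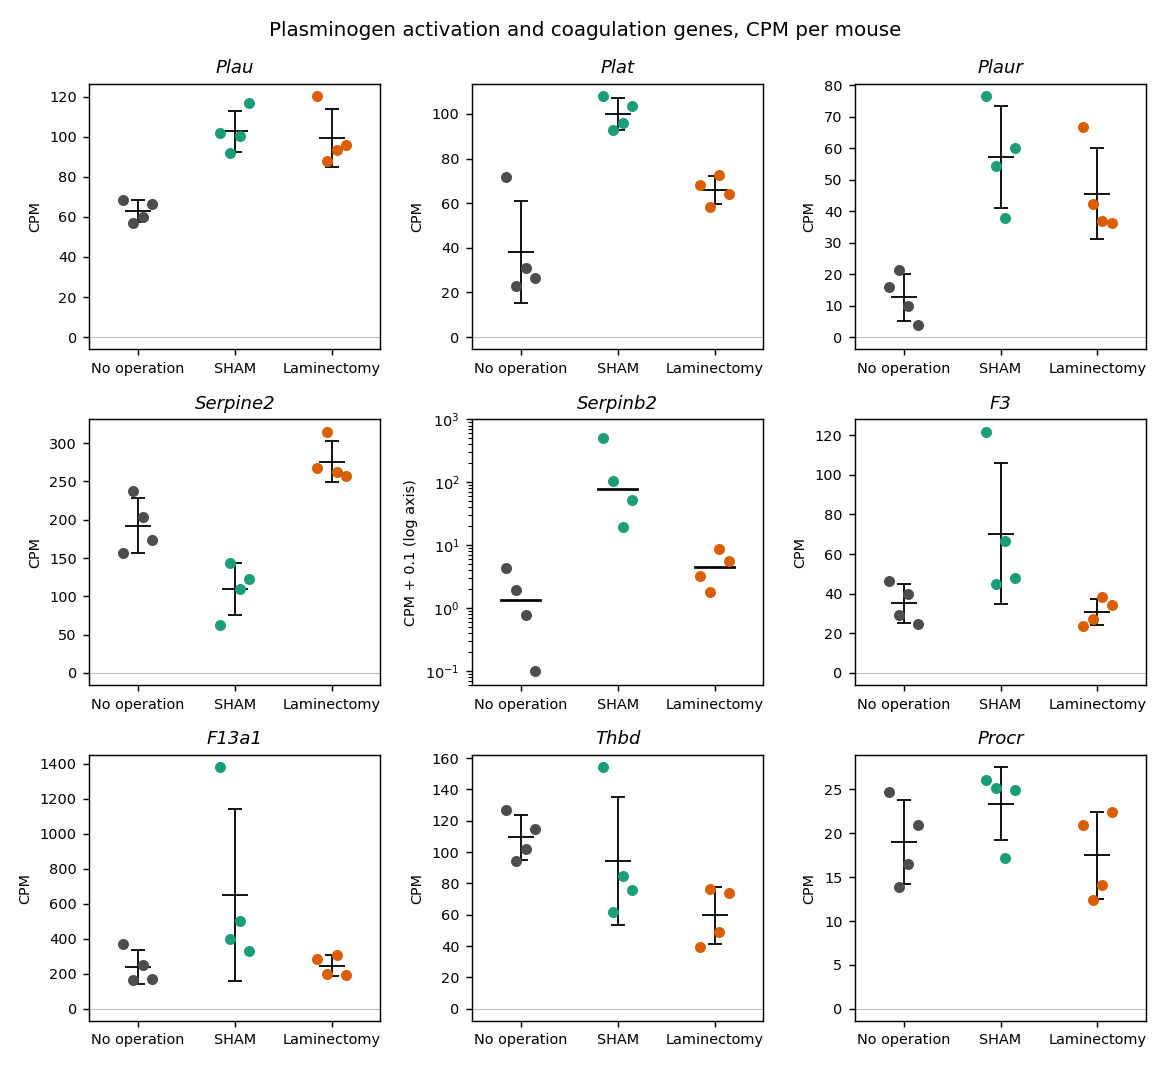
CPM (vertical axes) of the 9 genes in every mouse, by group (horizontal axes). Points are mice, bars are the group mean with its SD (n = 4), and for *Serpinb2* the axis is logarithmic, 0.1 is added and the line is the group median. *Plau* and *Plaur* were above the No operation range in every surgical mouse, *Serpine2* separated all 3 groups with SHAM lowest, and SHAM replicate 1 reached 502 CPM for *Serpinb2* and 1378 CPM for *F13a1*.

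*Serpine2* and *Serpinb2*, serpins that inhibit plasminogen activators, differed between the operations in opposite directions. *Serpine2* encodes protease nexin 1, which also inhibits thrombin. It (identifier 20720, chromosome 1, 79794197 to 79861180, minus strand) measured 156, 237, 204 and 173 CPM without an operation, 62.9, 143, 109 and 123 CPM after the SHAM procedure and 267, 315, 263 and 257 CPM after laminectomy. The 3 groups did not overlap, with SHAM mice lowest, No operation mice between and Laminectomy mice highest. On the log2 scale, the fold change was -0.81 (SE 0.220) in SHAM and 0.52 (SE 0.219) in Laminectomy mice relative to No operation, and 1.33 (SE 0.222) between Laminectomy and SHAM. SHAM replicate 1 had the lowest level, 1.99-fold below the mean of the other SHAM mice. Without it the same differences were -0.62 (SE 0.161), 0.53 (SE 0.147) and 1.15 (SE 0.164). The osteoblast and cartilage markers summed to 14.8, 643, 184 and 7.22 CPM without an operation, 2.19, 125, 117 and 127 CPM in SHAM and 1956, 2427, 864 and 689 CPM in Laminectomy mice. Their sum was highest in the Laminectomy group, as *Serpine2* was, and within the No operation group in replicates 2 and 3, which also had the most *Serpine2*. The order did not hold between the other groups, since SHAM replicates 2 to 4 had a higher sum but less *Serpine2* than No operation replicates 1 and 4. Their part in the *Serpine2* result was not tested. *Ptprd*, *Chn1* and *Zic4* had the closest patterns, at differences of 0.250, 0.250 and 0.279.

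*Serpinb2*, which encodes plasminogen activator inhibitor 2, a serpin of activated monocytes, macrophages and keratinocytes, had the widest range of the 9 genes on the log2 scale. *Serpinb2* (identifier 18788, chromosome 1, 107511423 to 107535478, plus strand) measured 4.20, 1.83, 0.666 and 0 CPM without an operation, where a count of 0 in replicate 4 allows up to 0.210 CPM. After the SHAM procedure it measured 502, 103, 19.4 and 51.9 CPM, and after laminectomy 3.18, 1.70, 8.75 and 5.53 CPM. Every SHAM mouse was above every other mouse, and No operation and Laminectomy mice overlapped. The SHAM mice themselves differed widely, and replicate 1 was 8.62-fold above the mean of the other 3. The log2 fold change of SHAM relative to No operation was 6.65 (SE 1.22), and 5.11 (SE 0.927) without SHAM replicate 1. Laminectomy mice were at 1.51 (SE 1.12) relative to No operation and at -5.14 (SE 1.10) relative to SHAM, or -3.59 (SE 0.842) without SHAM replicate 1. Without No operation replicate 1, which had the most *Serpinb2* of its group, the differences from No operation were 7.62 in SHAM and 2.48 in Laminectomy mice. The keratinocyte markers summed to 100.1 CPM in SHAM replicate 1, 71.8 CPM in SHAM replicate 3 and at most 7.92 CPM in the other mice, while *Serpinb2* was higher in SHAM replicate 2 than in SHAM replicate 3. The part of these cells and of the macrophages in the *Serpinb2* result was not tested. Exons of *Serpinb2* overlap those of *Serpinb10* on the same strand, and *Serpinb10* averaged 3.36 CPM without an operation, 1.40 CPM in SHAM and 2.21 CPM in Laminectomy mice. The genes nearest to *Serpinb2* were *Il13ra2*, *Tnfrsf9* and *Serpina3i*, at differences of 1.39, 1.44 and 1.45. The SD of *Serpinb2* itself on that scale was 3.31, and its median difference from all candidates was 3.18.

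*F3* and *F13a1*, from the start and the end of coagulation, were both higher in SHAM mice than in Laminectomy mice. *F3*, the gene of tissue factor (identifier 14066, chromosome 3, 121723537 to 121735048, plus strand), measured 46.5, 29.2, 39.9 and 24.8 CPM without an operation, 122, 45.0, 66.7 and 47.8 CPM after the SHAM procedure and 23.8, 27.3, 38.2 and 34.1 CPM after laminectomy. SHAM mice lay above all Laminectomy mice, and SHAM replicate 2 lay within the No operation range. Expressed as log2 fold change, the value of SHAM relative to No operation was 1.00 (SE 0.316), and 0.61 (SE 0.240) without SHAM replicate 1. Laminectomy mice stood at -0.19 (SE 0.315) relative to No operation and at -1.19 (SE 0.317) relative to SHAM, or -0.78 (SE 0.239) without SHAM replicate 1.

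*F13a1* encodes the catalytic A subunit of factor XIII, which macrophages and platelets carry. *F13a1* (identifier 74145, chromosome 13, 36867178 to 37050244, minus strand) measured 371, 166, 249 and 167 CPM without an operation, 1378, 397, 500.2 and 329 CPM after the SHAM procedure and 283, 196, 309.8 and 191 CPM after laminectomy. SHAM mice were above all Laminectomy mice, and the lowest SHAM mouse was below the highest No operation mouse. SHAM replicate 1 was 3.37-fold above the mean of the other SHAM mice. The log2 fold change of SHAM relative to No operation was 1.45 (SE 0.443), and 0.79 (SE 0.296) without that mouse, a 1.73-fold in place of a 2.73-fold difference. Laminectomy mice were at 0.04 (SE 0.435) relative to No operation and at -1.41 (SE 0.443) relative to SHAM, or -0.74 (SE 0.296) without SHAM replicate 1.

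The patterns of *F3* and *F13a1* were the closest pair among the 36 pairs of the 9 genes, with a difference of 0.332 over the 12 mice, and *Tlr5*, a receptor for bacterial flagellin, was among the 3 nearest genes of each. The next smallest differences were *Plau* with *Procr* (0.405), *Plau* with *Plat* (0.488) and *Thbd* with *Procr* (0.574). The SD over the 12 mice was 0.364 for *Plau*, 0.377 for *Procr* and 0.561 for *Thbd*. The differences of *Procr* from *Plau* and from *Thbd* were thus above the SD of either gene and do not show a shared pattern. The macrophage sum of SHAM replicate 1 was 5253 CPM against 2984 to 3142 CPM in the other SHAM mice. The platelet and megakaryocyte sum was 574.5 CPM against 185 to 283 CPM, most of it from *Pf4* (458 CPM), while *Gp9* was at 0.28 CPM. Over all mice, 1 of 9 platelet markers was called higher and 1 lower in each surgical group (25.7% and 25.1% of all genes in SHAM, 24.2% and 24.4% in Laminectomy mice). The part of macrophages and platelets in the *F13a1* and *F3* results was not tested. The gene model *Gm30489* on the opposite strand overlaps exons of *F13a1*. The study's methods name the default settings of featureCounts, yet 10.2% of the deposited values are not whole. How reads in that overlap were assigned cannot be told from the sources used here.

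**Figure D2:**
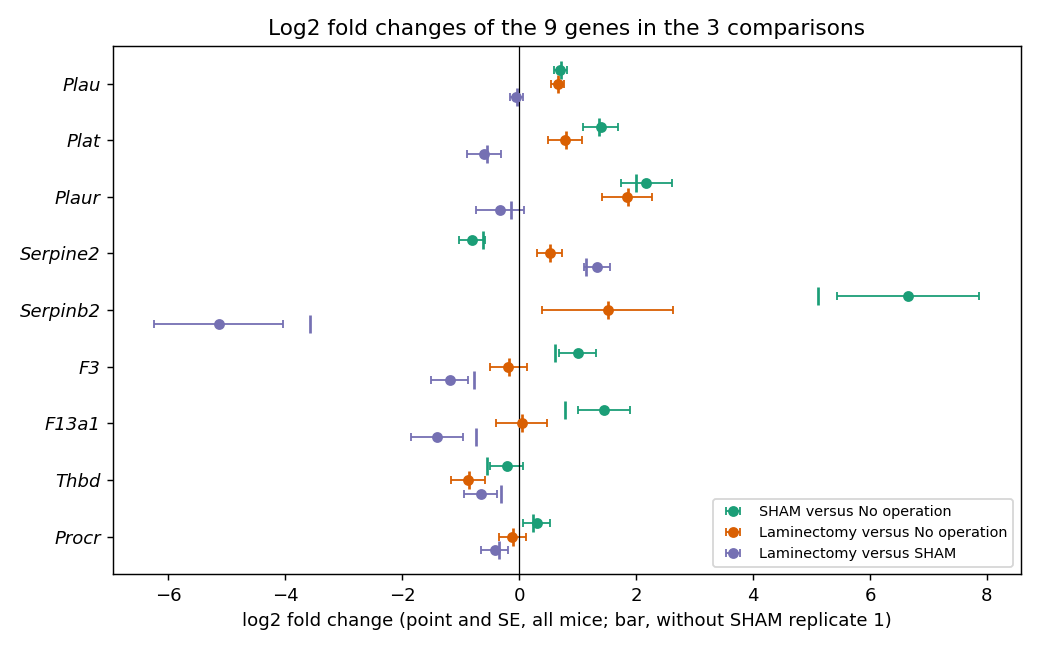
Log2 fold change (horizontal axis) of the 9 genes (vertical axis) in SHAM relative to No operation, Laminectomy relative to No operation and Laminectomy relative to SHAM mice. Points with bars are the value and its SE over all 12 mice, and vertical strokes are the value without SHAM replicate 1. Leaving that mouse out moved *Serpinb2* in SHAM from 6.65 to 5.11 and *F13a1* from 1.45 to 0.79, while *Plau* and *Plat* moved little.

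*Thbd* and *Procr*, the endothelial receptors that lead thrombin to protein C, differed less between SHAM and No operation mice than the activators and their receptor. *Thbd* (identifier 21824, chromosome 2, 148404466 to 148408188, minus strand) measured 127, 94.3, 102 and 115 CPM without an operation, 154, 61.9, 85.0 and 75.8 CPM after the SHAM procedure and 39.3, 76.3, 49.3 and 73.8 CPM after laminectomy. All Laminectomy mice were below all No operation mice. In SHAM mice, replicate 1 had the highest level of the 12 mice, while the other 3 were below all No operation mice. In log2 terms, the fold change relative to No operation was -0.87 (SE 0.284) in Laminectomy mice and -0.22 (SE 0.282) in SHAM mice, or -0.56 (SE 0.228) without SHAM replicate 1, and 0.02 with library totals in place of TMM scaling. Laminectomy mice stood at -0.66 (SE 0.283) relative to SHAM, and at -0.31 (SE 0.225) without that mouse.

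*Procr* (identifier 19124, chromosome 2, 155751117 to 155755471, plus strand) measured 24.7, 13.9, 16.5 and 20.9 CPM without an operation, 26.1, 25.2, 17.2 and 25.0 CPM after the SHAM procedure and 21.0, 12.4, 14.1 and 22.5 CPM after laminectomy. The 3 groups overlapped. The log2 fold change was 0.30 (SE 0.232) in SHAM and -0.12 (SE 0.233) in Laminectomy mice relative to No operation, and -0.42 (SE 0.232) between the operations. Without SHAM replicate 1 the values that involve SHAM mice were 0.24 and -0.35. The endothelium markers summed to 662 to 844 CPM in No operation, 503 to 671 CPM in SHAM and 478 to 740 CPM in Laminectomy mice. Of those 8 markers, *Kdr* and *Tek* were called lower in both surgical groups (25.1% and 24.4% of all genes), and the general endothelial markers *Pecam1* and *Cdh5* were not called. The part of the endothelium in the *Thbd* result was not tested.

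Counted over the 9 genes, a call needed an adjusted p below 0.05 (edgeR) with an absolute log2 fold change above 0.5. In SHAM relative to No operation mice, 6 genes were called higher (background 25.7% of the 14765 genes tested) and *Serpine2* lower (background 25.1%). All 6 and *Serpine2* were also called without SHAM replicate 1. In Laminectomy relative to No operation mice, *Plau*, *Plat* and *Plaur* were called higher (background 24.2%) and *Thbd* lower (background 24.4%). With DESeq2, *Serpine2* joined those higher in Laminectomy mice, which made 4 (background 25.4%), and *Thbd* was again the 1 called lower (background 24.3%). Because the genes were picked on these comparisons, nothing is read from these counts. The call of *Plat* in Laminectomy mice was lost without No operation replicate 2, 3 or 4 or Laminectomy replicate 1, 3 or 4, or with only the 2 groups compared in the fit, with log2 fold changes of 0.61 to 0.80. That of *Thbd* was lost without Laminectomy replicate 1 (-0.72) or 3 (-0.79), or with library totals in place of TMM scaling (-0.54). The SHAM call of *Serpine2* was lost with library totals (-0.55).

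Between Laminectomy and SHAM mice, edgeR called none of the 9 genes and none of all genes tested (background 0% in both directions). At an unadjusted p under 0.05, 1 of the 9 was higher (background 6.95%) and 4 were lower (background 9.03%). DESeq2 called *Serpine2* higher (background 1.8%) and *Serpinb2*, *F3* and *F13a1* lower (background 2.28%). In that comparison all mice were higher without overlap for 1 gene, *Serpine2* (background 5.05%), and lower for 4, *Plat*, *Serpinb2*, *F3* and *F13a1* (background 5.07%). Against No operation, the mice did not overlap for 4 genes higher and 1 lower in SHAM (background 26.7% and 27.8%) and for 3 genes higher and 1 lower in Laminectomy mice (background 27% and 29%). The median log2 fold change of the 9 genes was 1.00 in SHAM and 0.52 in Laminectomy mice relative to No operation and -0.60 between the operations, beside medians of 0.00, 0.01 and 0.00 over all genes. Both surgical groups were compared with the same No operation mice.

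To compare levels between genes, CPM was divided by the length of the exon union in kilobases. In No operation mice, *F13a1* (35.3 ± 14.3 CPM per kb, SD, n = 4), *Thbd* (29.4 ± 3.84), *Plau* (26.6 ± 2.27) and *Serpine2* (23.2 ± 4.31) were the highest, and their spreads overlapped. *Serpinb2* was the lowest, at 0.713 ± 0.787 CPM per kb. In SHAM mice, *F13a1* (96.6 ± 72.7) and *Serpinb2* (72.0 ± 95.5) had the highest means, *Plau* was at 43.4 ± 4.34 and *Plat* at 16.0 ± 1.13 CPM per kb. The first 2 means rest on replicate 1, since without it *F13a1* averaged 60.7 and *Serpinb2* 24.8 CPM per kb, the latter below *Plau* at 43.5 CPM per kb. In Laminectomy mice, *Plau* (42.0 ± 6.12), *F13a1* (36.4 ± 8.98) and *Serpine2* (33.3 ± 3.22) led, and their SD ranges touched one another. Per kb of exon, *Plau* was above *Plat* in every group, at 26.6 against 6.11, 43.4 against 16.0 and 42.0 against 10.5 CPM per kb.

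**Figure D3:**
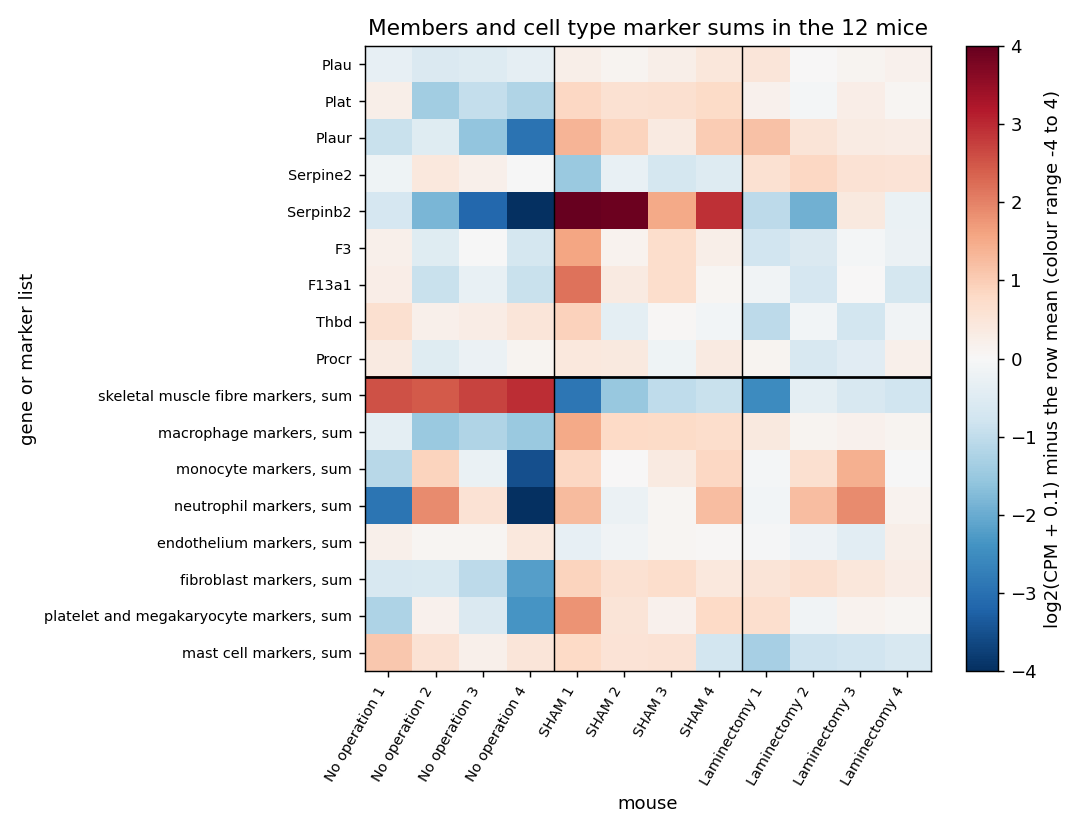
Levels of the 9 genes (upper rows) and summed levels of marker lists (lower rows) in the 12 mice (columns), as log2(CPM + 0.1) minus the mean of the row, with colours from -4 to 4. Muscle markers were high in No operation mice, macrophage markers were high in surgical mice, the fibroblast sum was higher there with 5 of its 8 markers called higher and *Dcn* lower in SHAM (25.7% and 25.1% of all genes), 4 higher and 2 lower in Laminectomy mice (24.2% and 24.4% of all genes), and SHAM replicate 1 had the highest macrophage sum (5253 CPM) together with the highest *F13a1* (1378 CPM).

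The other genes of the pathway were taken from a list of 70, of which 69 were in the table and 49 passed the filter. *Plg*, the gene of plasmin's precursor plasminogen, reached at most 2 counts in any mouse. The fibrinogen genes were also near 0, with *Fga* at 0 counts in every mouse and *Fgb* and *Fgg* at up to 14 and 15 counts in 1 SHAM mouse. *Serpinf2*, the gene of the main plasmin inhibitor, and *Proc*, the gene of protein C, also fell under the filter, as did 14 further genes, among them *F9*, *F11*, *F12* and *Serpinc1*. These proteins are made mainly by the liver, and the defining markers of hepatocytes were at or under 3 counts in every mouse for 4 of 6 genes.

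Of the 49 genes tested, 21 rose and 4 fell in SHAM relative to No operation mice, and 23 rose and 8 fell in Laminectomy mice (edgeR, adjusted p below 0.05 over all genes tested and absolute log2 fold change above 0.5), beside 25.7% and 25.1% of all genes in SHAM and 24.2% and 24.4% in Laminectomy mice. Their median log2 fold change was 0.63 in SHAM and 0.59 in Laminectomy mice, beside 0.00 and 0.01 over all genes. With library totals in place of TMM scaling, under which the median log2 fold change of all genes was 0.25 and 0.33, the same counts were 27 rose and 3 fell in SHAM and 29 rose and 6 fell in Laminectomy mice, beside 35.1% higher and 18.1% lower of all genes in SHAM and 37% and 15.9% in Laminectomy mice under that scaling. Without SHAM replicate 1, 23 rose and 4 fell in SHAM mice.

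Among the listed serpins, other inhibitors of fibrinolysis and their binding partners, *Serpinb6a*, *Serpini1*, *A2m* and *Serpinb10* were called in neither surgical group. *Serpinb8*, which encodes a serpin, rose (log2 fold change 1.27 in SHAM and 0.90 in Laminectomy mice, adjusted p = 0.00364 and 0.0233, edgeR). *Vtn*, which encodes the matrix and plasma protein vitronectin, fell (-1.71 and -1.25, adjusted p = 0.00144 and 0.00912, edgeR).

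Of 14 receptors, binding partners and related proteases of the plasminogen system that were tested, 10 rose and 2 fell in SHAM mice (25.7% and 25.1% of all genes) and 8 rose and 3 fell in Laminectomy mice (24.2% and 24.4% of all genes). The protease gene *Hpn* was among those that fell in both groups. *Anxa2*, a plasminogen and tPA receptor at the cell surface, averaged 327 CPM without an operation, 776 CPM in SHAM and 664 CPM in Laminectomy mice (log2 fold changes 1.25 and 1.02, adjusted p = 0.000627 and 0.00238, edgeR). Its partner *S100a10* averaged 123, 189.5 and 162 CPM and passed in SHAM mice (0.63, adjusted p = 0.0147, edgeR), and in Laminectomy mice its log2 fold change was 0.40 (adjusted p = 0.0919, edgeR). Without No operation replicate 2 the SHAM value of *S100a10* was 0.50, just under the limit. *Mrc2*, the uPA receptor associated protein that takes up collagen, rose by a log2 fold change of 1.13 and 1.02 (adjusted p = 0.000243 and 0.000532, edgeR). *Lrp1*, which clears complexes of activators with their serpins, rose in SHAM mice (0.98, adjusted p = 0.00268, edgeR), and in Laminectomy mice its log2 fold change was 0.43 (adjusted p = 0.111, edgeR). With library totals in place of TMM scaling, both *S100a10* (0.73, adjusted p = 0.00450, edgeR) and *Lrp1* (0.76, adjusted p = 0.00604, edgeR) were called in Laminectomy mice. *Itgam*, a myeloid integrin subunit that binds fibrinogen, averaged 108, 559 and 317 CPM and rose by 2.37 in SHAM and 1.55 in Laminectomy mice, and the latter call was lost without No operation replicate 3 (adjusted p = 0.0689, edgeR) or Laminectomy replicate 1 (adjusted p = 0.0869, edgeR). Without SHAM replicate 1 the SHAM values were 1.85 for *Itgam* (adjusted p = 0.00923, edgeR) and 1.20 for *Anxa2* (adjusted p = 0.00170, edgeR). *Clec3b*, which encodes the plasminogen-binding tetranectin, fell in Laminectomy mice from 131 to 25.8 CPM (-2.35, adjusted p = 0.00715, edgeR), and in SHAM mice its log2 fold change was -1.09 (adjusted p = 0.134, edgeR), called without Laminectomy replicate 1 (-1.09, adjusted p = 0.0122, edgeR) or with only the 2 groups compared in the fit (adjusted p = 0.0211, edgeR). *Vldlr* fell in both groups (-2.33 and -2.02). *Fap*, which encodes a stromal serine protease that also trims the plasmin inhibitor, averaged 57.5, 56.8 and 96.0 CPM, with log2 fold changes of -0.02 in SHAM (adjusted p = 0.951, edgeR) and 0.74 in Laminectomy mice (adjusted p = 0.0156, edgeR).

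**Figure D4:**
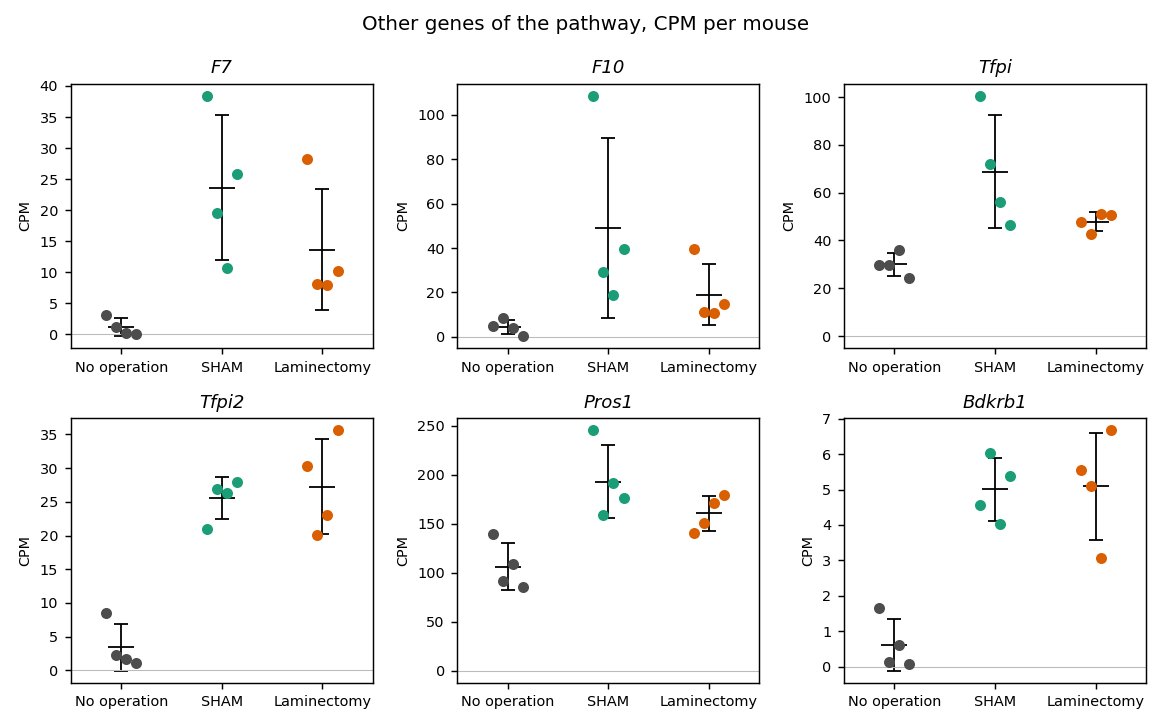
CPM (vertical axes) of *F7*, *F10*, *Tfpi*, *Tfpi2*, *Pros1* and *Bdkrb1* in each mouse of the 3 groups (horizontal axes). Points are mice and bars are the group mean with its SD (n = 4). In each panel the surgical mice lie above the No operation mice, and SHAM replicate 1 has the highest level of *F7*, *F10*, *Tfpi* and *Pros1*.

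Among procoagulant factors, *F7* and *F10*, the partner of tissue factor and its substrate, rose in both surgical groups. *F7* measured 3.17, 1.13, 0.27 and 0.07 CPM without an operation, 38.4, 19.5, 10.6 and 25.8 CPM after the SHAM procedure and 28.2, 8.07, 7.98 and 10.3 CPM after laminectomy (log2 fold changes 4.34 and 3.55, adjusted p = 0.000754 and 0.00261, edgeR). *F10* averaged 4.47, 49.2 and 19.0 CPM (3.45 and 2.08, adjusted p = 0.00271 and 0.0332, edgeR), and its call in Laminectomy mice was lost without No operation replicate 1, 3 or 4 or Laminectomy replicate 1 (adjusted p of 0.0551 to 0.119, edgeR), the log2 fold change without the last being 1.44. *Vwf*, the gene of von Willebrand factor from endothelium and platelets, averaged 141, 85.3 and 65.5 CPM. It fell in both groups (-0.72 and -1.10, adjusted p = 0.0219 and 0.00235, edgeR), the SHAM call being lost without No operation replicate 4, SHAM replicate 2 or SHAM replicate 4 (adjusted p of 0.0605 to 0.0622, edgeR) or with library totals in place of TMM scaling (-0.47, adjusted p = 0.113, edgeR). *F5* averaged 10.8, 8.17 and 10.6 CPM and was called in neither group (adjusted p = 0.680 and 0.976, edgeR). In all, 4 of 14 genes in the procoagulant part of the list rose and 1 fell in SHAM mice, and 6 rose and 2 fell in Laminectomy mice. Of all genes, 25.7% and 25.1% did so in SHAM and 24.2% and 24.4% in Laminectomy mice. Beside *F7* and *F10*, *Vkorc1* and *Mcfd2* rose in both groups, and *F2* (1.07 CPM on average) and *Lman1* in Laminectomy mice. *Vkorc1*, *Mcfd2* and *Lman1* do not encode clotting factors. *Fgl2* fell beside *Vwf* in Laminectomy mice. Without SHAM replicate 1 the SHAM values were 4.00 for *F7* (adjusted p = 0.00207, edgeR) and 2.70 for *F10* (adjusted p = 0.00803, edgeR).

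Of 8 genes tested in the anticoagulant part of the list, 4 rose and none fell in SHAM mice. In Laminectomy mice 5 rose and 2 fell, beside the same shares of all genes (25.7% and 25.1%, 24.2% and 24.4%). The 2 that fell were *Serping1*, from 568 to 301 CPM (log2 fold change -0.91, adjusted p = 0.0363, edgeR), and *Gas6*, from 363 to 210 CPM (-0.79, adjusted p = 0.0248, edgeR). *Tfpi2*, a Kunitz inhibitor of plasmin and of the tissue factor pathway that binds to matrix, averaged 3.40, 25.6 and 27.3 CPM (log2 fold changes 2.91 and 3.00, adjusted p = 0.000482 and 0.000456, edgeR). *Tfpi*, the gene of tissue factor pathway inhibitor, averaged 30.0, 68.8 and 47.9 CPM (1.20 and 0.68, adjusted p = 0.000493 and 0.0154, edgeR). *Pros1*, the gene of the protein C cofactor protein S, averaged 106, 193 and 161 CPM (0.86 and 0.59, adjusted p = 0.00128 and 0.0117, edgeR). Without SHAM replicate 1 the SHAM values were 0.96 for *Tfpi* (adjusted p = 0.000554, edgeR) and 0.73 for *Pros1* (adjusted p = 0.00342, edgeR). The *Tfpi* and *Pros1* increases stand beside *Thbd*, which was lower in Laminectomy mice, and *Procr*, whose groups overlapped. *Serpind1*, the gene of heparin cofactor II, rose in Laminectomy mice from 0.236 to 2.69 CPM (3.48, adjusted p = 0.000566, edgeR). In SHAM mice its log2 fold change was 1.49 (adjusted p = 0.0583, edgeR), which passed without SHAM replicate 1 (1.73, adjusted p = 0.0328, edgeR) or Laminectomy replicate 1 (1.49, adjusted p = 0.0465, edgeR), with the replicate block (1.51, adjusted p = 0.0435, edgeR), with library totals (1.74, adjusted p = 0.0292, edgeR) and by DESeq2 (1.52, adjusted p = 0.0458).

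Of 6 thrombin, protease-activated and kinin receptors, 1 rose in SHAM (25.7% of all genes) and 2 rose in Laminectomy mice (24.2% of all genes). *Bdkrb1*, the inducible bradykinin receptor, had 1.65, 0.13, 0.60 and 0.07 CPM without an operation, 4.55, 6.04, 4.02 and 5.39 CPM after the SHAM procedure and 5.56, 5.09, 3.06 and 6.67 CPM after laminectomy (log2 fold changes 3.02 and 3.05, adjusted p = 0.00178 and 0.00184, edgeR). *F2r*, the thrombin receptor PAR1, averaged 41.1, 53.5 and 60.9 CPM, with 0.38 in SHAM (adjusted p = 0.144, edgeR) and 0.57 in Laminectomy mice (adjusted p = 0.0393, edgeR). The *F2r* call in Laminectomy mice was lost without No operation replicate 2, 3 or 4 or Laminectomy replicate 2, 3 or 4 (adjusted p of 0.0585 to 0.102, edgeR), and the SHAM value passed without No operation replicate 1 (0.59, adjusted p = 0.0266, edgeR) or with library totals (0.64, adjusted p = 0.0228, edgeR). Between Laminectomy and SHAM mice edgeR called none of the 49 genes, with 10 at an unadjusted p under 0.05, where 6.95% of all genes were higher and 9.03% lower at that level. DESeq2 called 2 higher and 1 lower, where it called 1.8% and 2.28% of all genes.

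The likeness of patterns over the 12 mice was measured among 12560 genes and is a description, since all points share the same libraries and scaling. Differences are not scaled by a gene's own spread, so they run larger for genes that vary more. *Plau* lay closest to *Cyb561d2*, *Lpp* and *Galnt4* (differences of 0.0833, 0.0964 and 0.102), where the median difference of *Plau* from all candidates was 0.502. *F3* lay closest to *Svep1* (0.226), an extracellular matrix protein gene, and *F13a1* to *Zbtb8b* (0.291) and *Irak3* (0.298), the last a brake on Toll-like receptor signalling. *Thbd* lay closest to *Pmp22* (0.254), and *Procr* to *Gfra2* (0.168). *Serpinb2*, whose own SD on this scale was 3.31, stood furthest from the other genes, at 2.29 or more from each of them. Its difference of 3.63 from *Serpine2* was the largest among the 36 pairs.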

How the data were processed

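RNA was sequenced from 12 BALB/c mice, 4 per group, with group and replicate number as the sample titles give them. The authors prepared stranded poly(A) libraries. Per the submitters' processing notes, STAR 2.6.1b, featureCounts 2.0.1 (default settings per the study's methods) and DESeq2 1.30.1 were used with GRCm38 (mm10). The deposited values behave like estimated counts, not normalized, since 10.2% are not whole, and a step that makes them so was not given in the sources used here. They were rounded (change of at most 0.5), which left the 9 genes as they were, although the planned design assumed whole counts. The study analysed 3 mice per group without naming them, so all 4 were used and each was left out in turn. No column of other samples was present.

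Genes were filtered with filterByExpr by group (4231 of 18996 removed, 14765 tested), scaled with TMM and fitted in 1 quasi-likelihood model (edgeR 4.0.16, R 4.3.3) with Benjamini-Hochberg adjustment over all genes. The SE is the absolute log2 fold change divided by the square root of F. Alternatives were DESeq2 1.42.0, other scaling and filters, a replicate block, a stricter fold change and each mouse left out. The 9 genes, the pathway list and the marker lists were chosen with earlier results of these data known. Named pathway genes were, per comparison, the 6 with the largest absolute log2 fold change among those called and averaging at least 2 CPM in the higher group, plus 17 preset genes. The values of 1 gene of this list are not reported here. *Fap*, *Hpn*, *Vldlr*, *F9*, *F11*, *F12*, *Serpinc1*, *Vtn*, *Serpinb8*, *Serpinb10* and the single markers named are exceptions, picked once their values were known. So are *Serping1*, *Gas6*, *F2*, *Vkorc1*, *Lman1*, *Mcfd2*, *Fgl2*, *Serpinb6a*, *Serpini1* and *A2m*. For each of the 9 genes, the 3 genes with the most similar centred log2(CPM + 0.1) profile were taken from those tested that averaged at least 5 CPM in 1 or more groups. Lengths and coordinates are from the GENCODE annotation of GRCm38, and promoters from RefSeq. Precision depends on counts and on the spread between mice (biological coefficient of variation 28.3%). Floors cover counting error only. The fits were tested on simulated data.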

Additional observations from a re-analysis of the deposited data

Results flagged for a closer look

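*Procr* in SHAM replicate 3 was at 17.2 CPM, far below the other 3 SHAM mice at 25.0 to 26.1 CPM, with a gap of 0.898 of the group's range, above the 95% limit of Dixon's test for 4 samples. In all, 27 groups of 4 values were examined this way on the log2(CPM + 0.1) scale, and chance marks about 1 in 20 such groups. The value lies within the No operation range of *Procr* (13.9 to 24.7 CPM).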

How the results depend on the processing

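For the pathway list, a stricter absolute log2 fold change above 1 left 13 genes higher and 3 lower in SHAM and 13 higher and 5 lower in Laminectomy mice relative to No operation, and DESeq2 called 2 higher and 1 lower between Laminectomy and SHAM where edgeR called 0. Leaving out each mouse in turn gave 20 to 26 higher and 3 to 6 lower in SHAM, 18 to 23 higher and 6 to 8 lower in Laminectomy mice, and 0 to 0 between the operations. With library totals only, the share of calls that were higher over all genes went from 50.6% to 66.0% in SHAM and from 49.8% to 69.9% in Laminectomy mice. Of the fold changes of the 9 genes under all alternatives, 507 of 510 moved by less than the spread between mice and none of those called changed sign. The other 3 came with library totals only, at 0.96 in SHAM and 0.98 in Laminectomy mice for *Plau* and 0.83 in Laminectomy mice for *Serpine2*. The spread is the SD between single mice of the 2 groups, any mouse left out included. Leaving out 1 mouse of 4 can hardly move a value that far, so nothing is read from this count. Moves of more than 1 SE were among the 507. *F13a1* in SHAM mice went from 1.45 (SE 0.443) to 0.79 without SHAM replicate 1. *Plat* in SHAM mice went from 1.39 (SE 0.295) to 1.89 without No operation replicate 1. Under that scaling *Procr* in SHAM mice was called (0.56), and *Serpine2* in SHAM (-0.55) and *Thbd* in Laminectomy mice (-0.54) were not. *Serpine2* in Laminectomy mice, close to the fold change limit, was called in 7 of 19 alternatives, among them DESeq2 and the fits without No operation replicate 2 (0.63), SHAM replicate 1 (0.53) or SHAM replicate 2 (0.52). *Serpinb2* has no value where at least 10 counts in every mouse were required. Same-numbered mice of different groups correlated between -0.227 and 0.349 over 12 pairs, and 4 correlated best with their own number, so the numbers were not taken as pairs. With the replicate block, 23 pathway genes were higher and 4 lower in SHAM and 23 higher and 7 lower in Laminectomy mice, and 4 of the 9 genes were called higher in Laminectomy mice, beside 24.2% of all genes in that fit. The cause of these changes was not tested, apart from the higher limit and the rescaling themselves.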
